A study of Mus musculus with 4 samples.

Results

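The Clcn genes encode the CLC family of chloride channels and chloride/proton exchangers. They were measured here in the prefrontal cortex of mice, as all probe sets whose single gene symbol starts with Clcn and a digit. A probe set is a group of probes on the array that together give 1 intensity. There were 13 such probe sets of 6 genes (Clcn1, Clcn2, Clcn3, Clcn4, Clcn5 and Clcn7) among 12422 probe sets on each array, of which 10833 carried a single gene name. The transgenic mice were females with extra human synaptic AChE (acetylcholinesterase, which ends acetylcholine signalling by hydrolysis), and the controls were FVB/N females, an inbred strain. Each array received total RNA pooled from 4 mice, with 2 transgenic pools and 2 control pools. The labels do not state the age of the mice, the strain background of the transgenic mice or the promoter of the transgene, and nothing says whether the 2 pools of a group held different mice. The values describe these 4 arrays, and their number limits the precision. The family was picked because of how some of its probe sets differed between these groups, so their values are given as a description, with no test of their own. A probe set was tested if its mean log2 intensity passed the 40th percentile, and is referred to as called if limma's adjusted p for transgenic minus control was under 0.05 over all 7453 tested probe sets. By that rule 5.46% of all tested probe sets were called higher and 4.56% lower.

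CLC proteins work in pairs and fall into a branch of channels in the plasma membrane and a branch of exchangers in the membranes of endosomes, lysosomes and synaptic vesicles. The channel branch holds Clcn1, the chloride channel of skeletal muscle, and Clcn2, a widely expressed channel whose loss in mice leads to vacuoles in white matter. The exchanger branch holds Clcn3, found on endosomes and synaptic vesicles and needed for survival of hippocampal neurons in mice, and its relatives Clcn4 and Clcn5. It also holds Clcn7, the lysosomal exchanger whose loss causes lysosomal storage in neurons and dense bone. Exchangers carry chloride in against protons and thereby act beside the vacuolar proton pump, which acidifies the same compartments.

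The promoter windows below are shown for Clcn3 and Clcn4, the genes with probe sets called higher in transgenic pools, and for Clcn7, whose probe sets both read lower in transgenic pools. Each window spans 250 bases before to 50 bases after a gene start (assembly GRCm38.p6), in the direction of transcription. It is the furthest upstream of the windows available for its gene. For Clcn4 the gene in RefSeq reaches further upstream than the window, to position 7300916 of chromosome 7. Capitals mark matches to the cyclic AMP response element TGACGTCA or the E-box CACGTG, motifs chosen after these windows had been read. Each motif reads the same on both strands, and the matches do not overlap.
Clcn3, chr8:60983262-60983561, minus strand: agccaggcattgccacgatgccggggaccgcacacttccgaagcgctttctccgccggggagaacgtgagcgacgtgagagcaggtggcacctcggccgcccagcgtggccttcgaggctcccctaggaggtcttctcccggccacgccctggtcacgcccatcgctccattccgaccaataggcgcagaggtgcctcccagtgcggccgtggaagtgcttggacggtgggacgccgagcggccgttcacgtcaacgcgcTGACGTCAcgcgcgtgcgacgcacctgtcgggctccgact
Clcn4, chr7:7299508-7299807, minus strand: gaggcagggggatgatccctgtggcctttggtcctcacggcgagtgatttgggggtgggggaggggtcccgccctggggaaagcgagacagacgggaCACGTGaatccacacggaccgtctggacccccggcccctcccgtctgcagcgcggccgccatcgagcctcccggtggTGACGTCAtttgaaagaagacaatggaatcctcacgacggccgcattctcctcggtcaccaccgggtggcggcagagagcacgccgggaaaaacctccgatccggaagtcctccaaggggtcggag
Clcn7, chr17:25133141-25133440, plus strand: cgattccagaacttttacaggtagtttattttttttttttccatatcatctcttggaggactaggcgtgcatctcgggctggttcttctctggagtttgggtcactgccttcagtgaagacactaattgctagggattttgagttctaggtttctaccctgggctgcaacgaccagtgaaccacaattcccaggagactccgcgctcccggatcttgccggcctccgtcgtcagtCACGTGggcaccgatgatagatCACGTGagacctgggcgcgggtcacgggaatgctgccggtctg
The windows of Clcn3 and Clcn4 each held 1 cyclic AMP response element, a motif present in 1.79% of the 32851 windows in the table. Clcn4 also held 1 E-box and Clcn7 held 2, against 7.15% of all windows with at least 1. The 7 Clcn genes in the table, Clcn6 included, had 11 windows, of which 2 held the cyclic AMP response element and 3 an E-box. Clcn6, an exchanger of late endosomes, had 2 E-boxes there and no probe set among those analysed here. The other windows of Clcn3, Clcn4 and Clcn7 held neither motif. Because the motifs were chosen from the windows shown, nothing is read from the shares. A match describes letters in a window and is not a measured binding site.

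The arrays were checked before the Clcn values were read. Mouse Ache, the gene matching the transgene, read 365.3 and 355.6 in transgenic pools and 599.5 and 621.9 in control pools (log2 change -0.76 ± 0.14, limma adjusted p = 0.00768). The probe set is annotated to the mouse gene and does not check the human transgene. All pools are labelled female, yet Xist, the RNA of the inactive X chromosome, differed between the groups. It read 178.5 and 228 in transgenic pools against 29.3 and 21.1 in control pools (log2 change 3.02 ± 0.31, limma adjusted p = 0.000165). Both control values are close to 19.675, the floor below which values were not distinguished. Among Y-linked genes, Kdm5d and Eif2s3y were under that floor on all arrays, and Uty on all but control replicate 1 (28). They do not mark any pool as male, but whether these probe sets detect male RNA was not tested. The reason for the Xist difference was not tested either. The cortical projection neuron markers on the array were above that floor, with a summed intensity of 4234 and 3910.1 in transgenic pools and 4783.9 and 5087.3 in control pools. They included Tbr1, a transcription factor of cortical neurons, at 1317.5 and 1513.9 in transgenic pools and 1399.1 and 1817.7 in control pools. Calls in each marker list were read at the brightest tested probe set of a gene. Of all 5701 genes read in that way, 285 were called higher and 256 lower (9.49% in either direction). The lists are short, and nothing about a cell type is read from the counts below. The sums, in contrast, took the brightest probe set of every listed gene on the array, tested or not. Blood markers (5 genes, 3 of them not tested) summed to 8527.3 and 7017.6 in transgenic pools and 2873.7 and 2468 in control pools. Most of that was Hba-a1, at 8257.2 and 6740.9 in transgenic pools and 2678.2 and 2325 in control pools. Both of the 2 tested blood markers (Hba-a1 and Alas2) were called higher. Of 6 tested markers of olfactory bulb and migrating neuroblasts, 2 (Eomes and Th) were called higher, with sums of 1716.5 and 1496.6 in transgenic pools and 1418.3 and 1001.3 in control pools. Among the other marker lists, 2 of 8 astrocyte markers were called higher (Aqp4 and Fabp7) and 1 lower (S100b), and 1 of 9 interneuron markers higher (Calb2) and 2 lower (Npy and Sst). A fall was called for 1 of the 6 cortical markers (Camk2a, with Nrgn next by p and not called) and 1 of 8 microglia markers (Tyrobp, with C1qb next), and a rise for 1 of 8 endothelial markers (Flt1, with Cldn5 next). Of 14 tested oligodendrocyte, choroid plexus and striatum markers, limma called 0 at the brightest probe set. At an unadjusted p under 0.05 limma had 1 of the 14 lower (Mag), against 10.8% of all genes higher and 13.3% lower. Dimmer probe sets of 2 of the 14 were called lower, Mobp 99047_at (log2 change -1.02) and Ptgds 92546_r_at (-0.64). The smallest p in these lists were those of Mag and Mbp for oligodendrocytes, Col1a1 and Igf2 for choroid plexus, and Drd2 and Penk for striatum. Striatum markers summed to 4164.2 and 2772.7 in transgenic pools and 2019 and 4230.3 in control pools. The part of these differences in the Clcn values was not tested, and in RNA from whole tissue fewer cells of a type and less RNA per cell cannot be told apart.

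The 4 probe sets of Clcn3, the vesicular exchanger, disagreed: the pair from a single source sequence was called higher in transgenic pools, and the others were not called. At 94464_at the transgenic pools read 1068.2 and 1313.6, against 60.4 and 58.7 in control pools. This is a 19.9-fold difference, or a log2 change of 4.31 ± 0.17 (SE; n = 2 pools per group). The groups lay far apart, with both control pools close to each other and above the floor. Both control readings were below the median intensity of their arrays (87.4 and 86.6), so the fold difference rests on dim readings. At 94465_g_at the transgenic pools read 565.9 and 742.5, against 54 and 59 in control pools, a log2 change of 3.52 ± 0.20. The control readings there were below those medians too. These 2 probe sets are listed under the same source sequence (AF029347), so they are not independent readings of the gene, and their log2 changes differed by 0.79.

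The remaining Clcn3 probe sets came from other source sequences and did not separate the groups. At 102786_at, from AI849432, the transgenic pools read 2051.4 and 2300.6, against 2095.5 and 2078.3 in control pools (log2 change 0.06 ± 0.11). One transgenic pool lay below both control pools and the other above them. At 94463_at, from X78874, the transgenic pools read 270.7 and 374.2, against 314.2 and 402 in control pools (log2 change -0.16 ± 0.20). The second pool of each group was the higher there, and the groups overlapped. Without control replicate 2 or transgenic replicate 1 the log2 change at 94463_at turned to 0.02 and 0.07.

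**Figure D1:**
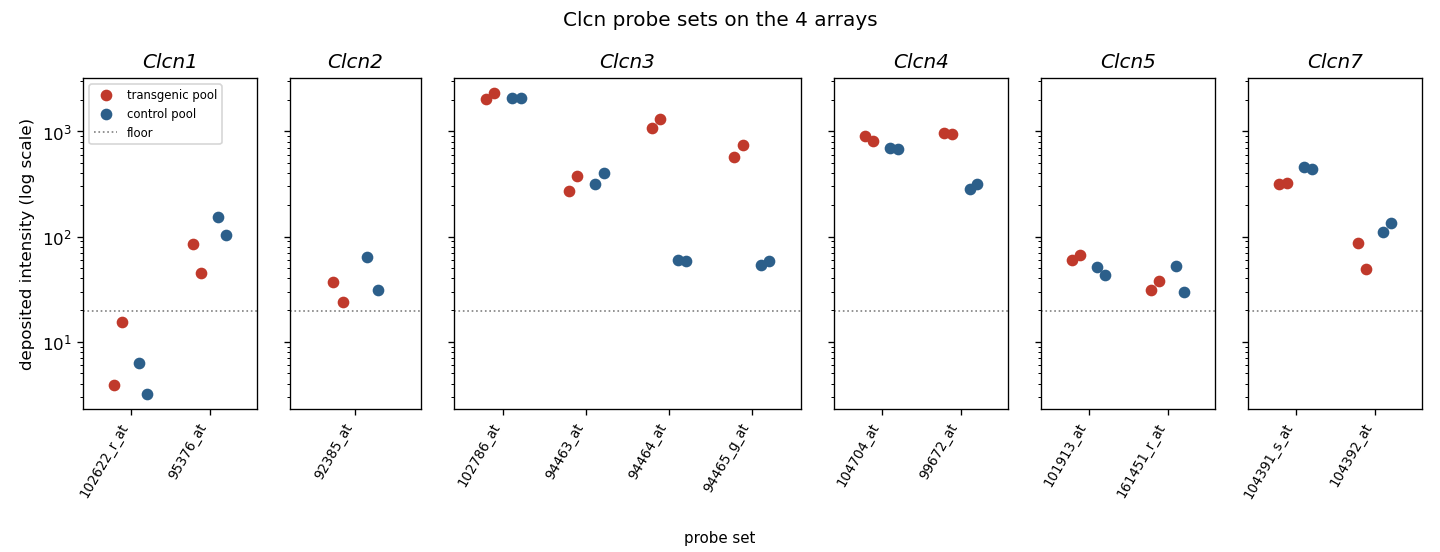
Deposited intensity on a log axis for each of the 13 Clcn probe sets, with the 2 transgenic pools in red at left and the 2 control pools in blue at right. The dotted line is the floor of 19.675. At Clcn3 94464_at and 94465_g_at the transgenic pools read 565.9 to 1313.6 and the control pools 54 to 60.4, while the pools intermix at Clcn3 102786_at and 94463_at.

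Because of this disagreement, a gene value for Clcn3 depends on how its probe sets are combined. The log2 change was 0.06 at the brightest probe set, 1.79 as the median and 1.93 as the mean of the 4 probe sets, and 1.27 as the mean of the 3 source sequences. The highest and lowest log2 changes of Clcn3 were 4.47 apart. Among the 124 genes with 3 or more tested probe sets, the median of this spread was 0.57 and the upper quartile 1.07. Clcn3 had the second widest of these genes, after Mef2c at 5.45. Some genes with 2 tested probe sets were wider than Clcn3, such as Klf13 at 6.59. The family was picked on this same contrast, so this place, and those of Clcn4 and Clcn7 below, are a description.

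Pairs of probe sets on the arrays were also compared by source sequence, and over all pairs the kinds differed little. Over 160 pairs of probe sets that share a gene and a source sequence, the median difference in log2 change was 0.28 (quartiles 0.11 and 0.47). Over 783 pairs that share a gene but come from different source sequences it was 0.36 (quartiles 0.16 and 0.69). A contrast appeared only among the few pairs picked for a large rise. In 7 pairs of the first kind a probe set had a log2 change above 3, and the other was called higher in 7 of them, Clcn3 being 1. Pairs of the second kind with a log2 change above 3 numbered 36, and the other probe set was called higher in 9. Clcn3 gave 4 of those 36 pairs and 0 of the 9. A shared source sequence did not always go with a shared call: Atp6v1a 95745_g_at was called higher (log2 change 1.40) and 95744_at was not called (0.25). Pairs from 1 gene share probe sets and arrays, so the counts of pairs describe the arrays only.

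Clcn4, the closest relative of Clcn3 among the genes measured here together with Clcn5, read higher in transgenic pools at both of its probe sets, by unequal amounts. At 99672_at, from Z49916, the transgenic pools read 960.1 and 943.9, against 281.9 and 314.3 in control pools, a 3.20-fold difference (log2 change 1.68 ± 0.14). At 104704_at, from AI837630, they read 896.2 and 804.6, against 689.9 and 685.6 in control pools (log2 change 0.30 ± 0.13). The groups did not overlap at either probe set, as at 53.7% of all tested probe sets, and the log2 changes were 1.37 apart. Of 785 genes with exactly 2 tested probe sets, 49 had a wider spread, and the median was 0.32.

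Clcn7 differed the other way at both probe sets, with neither called. At 104391_s_at the transgenic pools read 317.1 and 320.1, against 460.5 and 437.8 in control pools (log2 change -0.50 ± 0.15). At 104392_at they read 86.9 and 49.1, against 109.8 and 135.8 in control pools (log2 change -0.90 ± 0.31). Each transgenic pool lay below each control pool at both probe sets, while groups lay apart in either direction at 53.7% of all tested probe sets. The value at 104392_at was -1.31 and -0.49 without transgenic replicate 1 or 2, and -1.06 and -0.75 without control replicate 1 or 2. The spread of 0.41 between the 2 probe sets was above the median of 0.32 for the 785 genes with 2 tested probe sets. Of these genes, 316 had a wider spread.

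**Figure D2:**
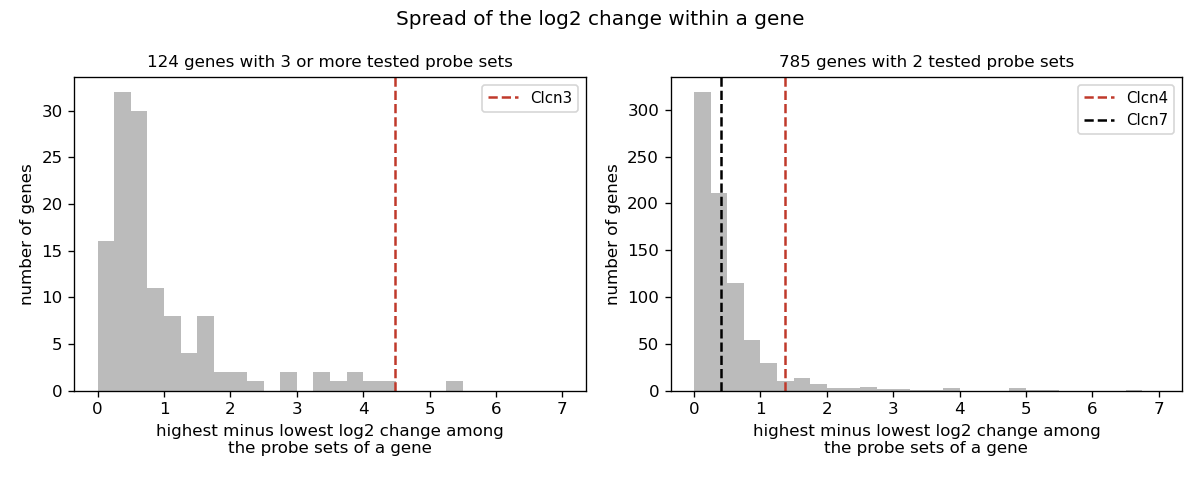
Histograms of the highest minus the lowest log2 change among the tested probe sets of a gene, for 124 genes with 3 or more probe sets at left and 785 genes with 2 at right. Dashed lines mark Clcn3 at 4.47, Clcn4 at 1.37 and Clcn7 at 0.41.

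Clcn5, an X-linked exchanger best known from endosomes of the kidney, was not called. At 101913_at the transgenic pools read 60.1 and 67.4, against 51.1 and 43.5 in control pools (log2 change 0.43 ± 0.32), without overlap. The other probe set, 161451_r_at, read 30.8 and 37.9 in transgenic pools and 52.7 and 29.6 in control pools and was too dim to pass the filter. Its transgenic values fell between the control values.

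The plasma membrane channels Clcn1 and Clcn2 gave no call. Clcn1 read 85.6 and 45.1 in transgenic pools at 95376_at, against 154.2 and 102.9 in control pools (log2 change -1.02 ± 0.35), with no overlap but wide gaps between pools of a group. Its log2 change was -1.48 and -0.56 without transgenic replicate 1 or 2, and -0.73 and -1.31 without control replicate 1 or 2. Its second probe set, 102622_r_at, was under the floor on all 4 arrays, at 3.9 and 15.4 in transgenic pools and 6.3 and 3.2 in control pools, so no change is given. Clcn2 had a single probe set, 92385_at, at 36.9 and 24 in transgenic pools and 64.4 and 30.8 in control pools. The groups overlapped and the probe set was under the filter, so Clcn2 was not tested.

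**Figure D3:**
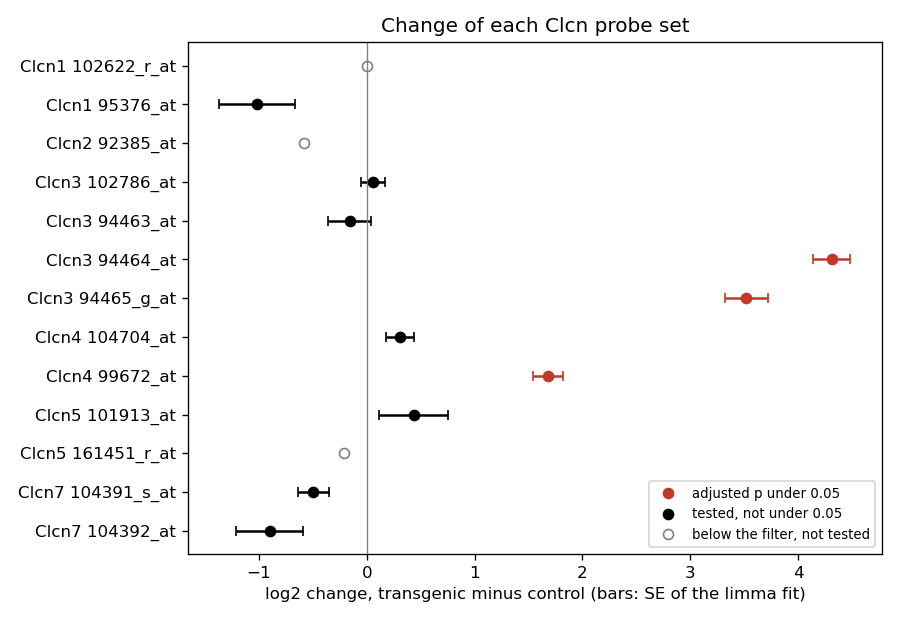
Log2 change (transgenic minus control) of the 13 Clcn probe sets, with bars for the SE of the limma fit where the probe set was tested. Filled red points are called, black points are tested and not called, and open points lay under the filter. Clcn3 94464_at and 94465_g_at lie at 4.31 and 3.52 and Clcn4 99672_at at 1.68, while no other Clcn probe set exceeds 0.43.

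Across the family, 10 of 13 probe sets passed the filter, and limma fitted to all 7453 tested probe sets called 3 of them higher and 0 lower after Benjamini-Hochberg adjustment. Over all tested probe sets the shares were 5.46% higher and 4.56% lower, and nothing is read from them because the family was chosen on the same contrast. At an unadjusted p under 0.05 there were 4 higher and 3 lower, against 11.2% and 13.1% of all tested probe sets. The groups did not overlap at 8 of the 10, against 53.7% of all. The median log2 change of the 10 was 0.18, and that of all tested probe sets -0.03. Read at the brightest tested probe set of each gene, as the gene lists below are, no Clcn gene was called. The log2 changes there were -1.02 for Clcn1, 0.06 for Clcn3, 0.30 for Clcn4, 0.43 for Clcn5 and -0.50 for Clcn7. Without the filter on dim probe sets 1 of the 3 calls was left, at Clcn3 94464_at. A further call, lower, appeared for Clcn1 95376_at without control replicate 2 or with replicate number as a block, and for Clcn7 104391_s_at with a filter at the 60th percentile.

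The genes with the most similar profiles were found by the root mean square difference in log2 intensity over the 4 arrays, after each probe set was centred on its own mean. For Clcn3 94464_at, among 6748 named probe sets of other genes, these included Mapt 102742_g_at and Gna13 100514_at, with differences of 0.12 and 0.13. Hipk2 103833_at, a nuclear protein kinase, came as close with its control values set to the floor, and its distance and place in the order depend on that floor. It read 372.5 and 383.4 in transgenic pools and 7.6 and 7 in control pools. Mapt, the gene of the microtubule protein tau, read 2067.6 and 2097.5 against 111.6 and 94.4 in control pools. Gna13, a G protein subunit, read 375.8 and 476.2 against 24.6 and 25.7 in control pools. For Clcn4 99672_at the nearest were Csnk1e, Wwc2 and Limch1, at 0.04, 0.04 and 0.06. Csnk1e, a casein kinase, read 745.7 and 706.1 in transgenic pools and 218.4 and 229.4 in control pools. The nearest to Clcn5 101913_at were Kif2a, Gas1 and Arpp19, those to Clcn7 104392_at were Tbxa2r, Igsf10 and Slc25a17, and those to Clcn1 95376_at were Hcls1, Trim3 and Sdf2. With 4 arrays in 2 groups, closeness mostly restates the size of the group difference.

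Other chloride channels and carriers, listed together with the related bicarbonate carriers of the Slc4 family, were read at 1 probe set per gene, the brightest tested. Of 12 genes tested, 1 was called higher and 1 lower, against 9.49% of all 5701 genes called in either direction. The gene called higher, Slc4a4, is a sodium bicarbonate cotransporter of astrocytes and does not itself carry chloride. It read 128.7 and 128.8 in transgenic pools and 38.6 and 32.6 in control pools (log2 change 1.86 ± 0.29, limma adjusted p = 0.00282). Slc12a5, the neuronal potassium chloride exporter that keeps intracellular chloride low, read 53.3 and 55.1 against 129.3 and 114.6 in control pools (log2 change -1.17 ± 0.26, limma adjusted p = 0.0196). Slc12a2, the importer that works against it, had a log2 change of 0.42 ± 0.15 (limma adjusted p = 0.111). The groups of all 3 genes lay apart, as they did at 53.7% of all tested probe sets. The list had a median log2 change of 0.09, against -0.04 over all genes. Without the filter on dim probe sets Slc12a5 and Slc4a4 were not called (limma adjusted p = 0.176 and 0.121). The adjusted p of Slc12a5 was 0.0910, 0.0885 and 0.0920 without control replicate 1, transgenic replicate 1 or transgenic replicate 2, and that of Slc4a4 was 0.0553 and 0.0542 without transgenic replicate 1 or 2. Slc12a2 had 0.0498 without control replicate 2.

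Of 7 tested GABA type A and glycine receptor subunits, the chloride channels opened by transmitters, 1 was called higher, 1 lower and 5 not, against 9.49% of all genes called in either direction. They had a median log2 change of -0.11. Gabrb1, a beta subunit, read 1548.3 and 1562.5 in transgenic pools and 126.9 and 127.8 in control pools (log2 change 3.61 ± 0.14, limma adjusted p = 3.75e-07). Gabra3, an alpha subunit, read 31.3 and 59.5 against 129.4 and 124.8 in control pools (log2 change -1.56 ± 0.34, limma adjusted p = 0.0192). The groups did not overlap for either gene, which also held at 53.7% of all tested probe sets. Without the filter on dim probe sets Gabra3 was not called (limma adjusted p = 0.306). The adjusted p of Gabra3 was 0.0507 without the intensity trend, and leaving out transgenic replicate 1 gave 0.0872.

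Vacuolar proton pump genes, partners of the exchangers in acidifying organelles, gave 0 rises and 2 falls among 16 tested genes, against 4.49% of all genes called lower, with a median log2 change of -0.17. At an unadjusted p under 0.05 limma had 1 higher and 7 lower, against 10.8% and 13.3% of all genes. Atp6v0a1, a membrane subunit of the neuronal pump, read 470.4 and 634.2 in transgenic pools and 1120 and 1005.7 in control pools (log2 change -0.96 ± 0.16, limma adjusted p = 0.00520). Atp6v0b, a proteolipid subunit, read 2468 and 2597.3 against 3862.8 and 3838.3 in control pools (log2 change -0.60 ± 0.10, limma adjusted p = 0.00502). All transgenic pools lay below all control pools for both genes. Groups lay apart, in either direction, at 53.7% of all tested probe sets. Without the filter on dim probe sets Atp6v0a1 and Atp6v0b were not called (limma adjusted p = 0.229 and 0.109). Atp6v1a, the catalytic subunit, had a log2 change of -0.36 ± 0.10 at its brightest probe set (95746_at, limma adjusted p = 0.0611), but 95745_g_at, from another source sequence, read 2585.5 and 2745.3 in transgenic pools and 920.9 and 1100.4 in control pools and was called higher (log2 change 1.40 ± 0.13, limma adjusted p = 7.78e-05). Another, 95744_at, from the same source sequence as 95745_g_at, had 0.25 ± 0.13 (limma adjusted p = 0.274). The adjusted p of Atp6v0a1 and Atp6v0b was 0.0569 and 0.0862 without the intensity trend, and 0.0628 and 0.0515 without transgenic replicate 1.

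Vesicular transporters and CLC partner proteins were thinly covered. Slc30a3, which loads zinc into vesicles of excitatory neurons, had a log2 change of -0.37 ± 0.12 (limma adjusted p = 0.0805), and with replicate number as a block 0.0473. Slc32a1, which loads GABA, had 0.08 ± 0.14 (limma adjusted p = 0.766). Tmem9b, the 1 partner gene tested, had 0.19 ± 0.14 (limma adjusted p = 0.479). Of these 3 genes, limma called 0, against 9.49% of all genes called in either direction. At an unadjusted p under 0.05 limma had 1 lower (Slc30a3), against 10.8% of all genes higher and 13.3% lower.

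**Figure D4:**
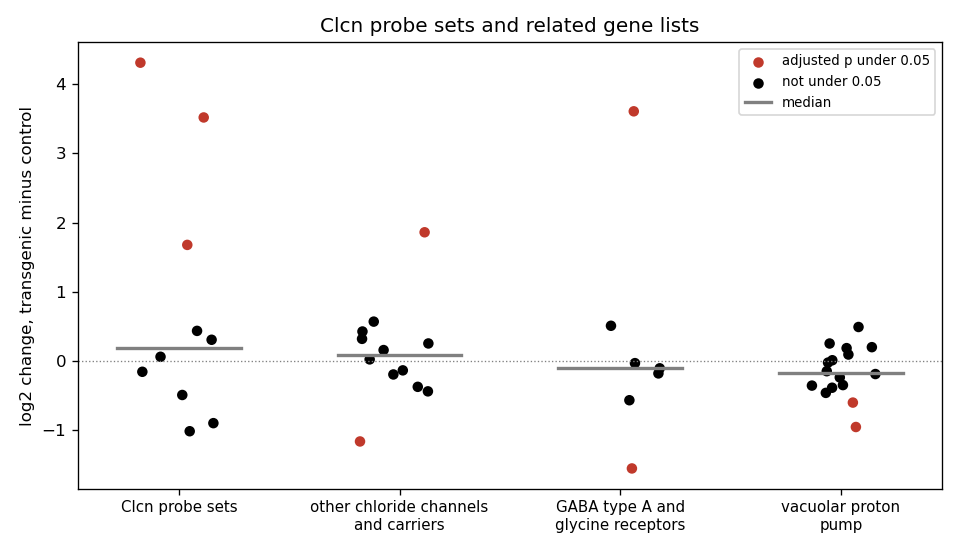
Log2 change (transgenic minus control) of the 10 tested Clcn probe sets and, at 1 probe set per gene, of 12 other chloride channel and carrier genes, 7 GABA type A and glycine receptor genes and 16 proton pump genes. Red points are called, and grey bars are medians, at 0.18, 0.09, -0.11 and -0.17. Clcn is shown by probe set and the lists by gene, so their medians and calls are not like for like. At the brightest tested probe set per gene, no Clcn gene was called. Clcn3 and Gabrb1 hold the values above 3.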

How the data were processed

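RNA of 4 pools was measured on 4 single-channel arrays, grouped by the sample titles. The deposited values are 1 intensity per probe set on a linear scale, as read from the values, and the authors' algorithm is not given in the sources used. Medians differed by 1.85% and upper quartiles by 2.29% between arrays, so the scale was kept. The 66 control sets among 12488 were dropped. Symbols came from the platform annotation, updated to RefSeq (GRCm38.p6) for 10817 of 10833 single-gene probe sets; 396 had several genes and 1193 none. Probe positions are not given.

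Values were floored at their 25th percentile (19.675) and log2-transformed. Probe sets with a mean above the 40th percentile (7453) entered a two-sided limma test of transgenic minus control (version 3.58.1, R 4.3.3; eBayes with a mean-variance trend), and p-values were adjusted over all of them by Benjamini-Hochberg. The fit had 2 residual degrees of freedom plus 7.51 from the shared estimate. Called means an adjusted p under 0.05. Since separate mice are not stated for the pools, p-values measure only the spread of these samples, possibly a technical one. The labels give no batch, so batch and group cannot be told apart. Titles share replicate numbers; deviations of same-numbered pools correlated at 0.06, and the labels state no pairing.

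Members and gene lists were chosen with earlier results of these data known. Named are all Clcn probe sets, the called genes of each list (with fewer than 2, the 2 of smallest p) and the 3 nearest profiles of each Clcn gene; Slc12a2, Atp6v1a, Xist, Tbr1, the Y-linked genes and dimmer marker probe sets were added after their values were seen. Alternatives changed the floor, filter, scaling, variance prior, block and replicates.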

Additional observations from a re-analysis of the deposited data

How the results depend on the processing

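Directions of the 3 called Clcn probe sets (Clcn3 94464_at and 94465_g_at, Clcn4 99672_at) held in all alternatives, with log2 changes of 3.99 to 4.46, 3.20 to 3.72 and 1.60 to 1.76. Without the filter on dim probe sets, 48 of 12422 probe sets were called in all, instead of 747 of 7453. Of 13 Clcn probe sets 1 was called, instead of 3 of 10. Of 21 genes of the chloride and bicarbonate list 0 were called, instead of 2 of 12. In limma 5 of those 21 had an unadjusted p under 0.05. A filter at the 60th percentile also gave 0 of that list, with 7 tested and 2 at an unadjusted p under 0.05. Without the intensity trend 395 were called in all. With log2(value + 16) in place of a floor, the Clcn3 spread was 4.14 instead of 4.47. Leaving out 1 pool at a time gave 303 to 749 calls in all (303 and 313 without transgenic replicate 1 or 2), 3 to 4 for Clcn, 0 to 3 for that list and a Clcn3 spread of 4.28 to 4.67. In these fits the lone pool of a group is assumed to vary like the other group. The 0 came without either transgenic pool, when 4 of 12 had an unadjusted p under 0.05. With the replicate block 892 were called in all, 4 for Clcn (3 higher and 1 lower) and 2 for that list; the numbers are not known to pair the pools. The cause of these shifts was not tested. Signal near the floor limits Clcn1, Clcn2 and Clcn5, and dim control readings limit the size of the change at Clcn3 94464_at and 94465_g_at.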
